A study of Mus musculus with 15 samples.

Results

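A set of 9 genes at opposite ends of hepatic glucose metabolism were followed through 5 groups of mouse liver. They are the glucose transporters Slc2a1 and Slc2a2, the hexokinases Hk1 and Hk2, the aldolase Aldoa, the pyruvate kinases Pkm and Pklr, and the gluconeogenic enzymes Pck1 and G6pc. They were taken by gene symbol from the per-gene counts, as the isoforms typical of tumours, their liver-type counterparts and the enzymes of glucose output. All 9 were among the 24411 symbols in the files, and all 9 were among the 14098 genes that passed the low-count filter.

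PolyA RNA was sequenced from frozen livers of male mice of the FVB/NJ strain, with 15 libraries in 5 groups of 3. The control group (WT) was wild-type liver. The triple group carried S45Y-CTNNB1, G31A-NFE2L2 and hMET. The 3 double groups carried S45Y-CTNNB1 and hMET (written CTNNB1+MET), S45Y-CTNNB1 and G31A-NFE2L2 (CTNNB1+NFE2L2), or G31A-NFE2L2 and hMET (NFE2L2+MET). CTNNB1 encodes β-catenin, NFE2L2 encodes the stress-response factor NRF2, and MET is a receptor tyrosine kinase. Both substitutions lie in the stretch of their protein through which its degradation is controlled. The labels used here give no age, vector, day of harvest, promoter or feeding state, and do not say whether the wild-type mice received a control vector or whether each library came from a different mouse. The p-values therefore measure the spread between these libraries, which may be technical in part.

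Glucose enters cells through facilitative transporters, is trapped as glucose 6-phosphate by hexokinases and is split by aldolase before pyruvate kinase makes pyruvate. Hepatocytes normally use low-affinity or regulated isoforms at these steps (among them GLUT2 from Slc2a2 and the L-type kinase from Pklr), whereas most other cells and many tumours use GLUT1 from Slc2a1, hexokinases 1 and 2 from Hk1 and Hk2, aldolase A from Aldoa and the M-type kinase from Pkm. In fasting, hepatocytes run the path backwards, with phosphoenolpyruvate carboxykinase (Pck1) near its start and glucose-6-phosphatase (G6pc) releasing free glucose at its end.

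Promoter sequence was examined because several of these genes moved together. RefSeq gene starts on GRCm38.p6 were found for all 9 genes, with 14 windows of 250 bases upstream of a start. In all, 9 motifs were searched on both strands. The core of the hypoxia response element is ACGTG. The E-box is CACGTG, so every E-box also matches that core. TTACGT is part of the cAMP response element described in gluconeogenic promoters, and the full palindromic element is TGACGTCA. The others were the TCF/LEF motif CTTTGAT, the antioxidant response element core TGACNNNGC, the HNF4 motif CAAAGTCCA, the GC box GGGCGG and the TATA box TATAAA. The motif ACGTG, or its reverse complement, was present upstream of 4 of the 9 genes, Pkm, Hk2, Aldoa and Slc2a1. TTACGT was present upstream of 2 genes, Pck1 and G6pc. The stretches below show those matches in capitals, 5′ to 3′ on the gene's strand, as 30 bases around the match for Pkm and Aldoa and as the upstream window for the others, ending no more than 20 bases into the first annotated exon.
Pkm, chr9:59657140-59657169, plus strand, 75 bases before its second listed start: ctccgatccggtCACGTccgcgccgcagca
Aldoa, chr7:126799363-126799392, minus strand, 126 bases before its second listed start: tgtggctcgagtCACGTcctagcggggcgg
Hk2, chr6:82774455-82774704, minus strand: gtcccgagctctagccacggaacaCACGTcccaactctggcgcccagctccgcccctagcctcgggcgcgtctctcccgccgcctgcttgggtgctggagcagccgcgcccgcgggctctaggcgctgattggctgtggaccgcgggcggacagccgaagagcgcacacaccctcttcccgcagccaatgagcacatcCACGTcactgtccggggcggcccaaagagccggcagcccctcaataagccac
Slc2a1, chr4:119108495-119108730, plus strand: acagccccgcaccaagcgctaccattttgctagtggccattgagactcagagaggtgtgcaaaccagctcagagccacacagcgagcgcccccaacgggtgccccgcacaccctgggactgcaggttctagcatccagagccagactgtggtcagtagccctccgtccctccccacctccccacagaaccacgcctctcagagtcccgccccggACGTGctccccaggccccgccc
Pck1, chr2:173152823-173153067, plus strand: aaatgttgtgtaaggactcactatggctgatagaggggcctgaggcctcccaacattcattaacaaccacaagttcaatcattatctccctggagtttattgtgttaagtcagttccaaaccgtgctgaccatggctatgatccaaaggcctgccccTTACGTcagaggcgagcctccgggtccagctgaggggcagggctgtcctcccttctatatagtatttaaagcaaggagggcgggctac
G6pc, chr11:101367466-101367580, plus strand: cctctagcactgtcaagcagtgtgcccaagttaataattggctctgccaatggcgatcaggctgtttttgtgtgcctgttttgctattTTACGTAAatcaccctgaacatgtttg

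Distances here are counted from RefSeq starts, whereas the gene coordinates given with the levels are from GENCODE. The 2 starts coincide for Hk2, and the RefSeq start lies 34 bases downstream of the GENCODE one for Slc2a1, 25 for Pck1 and 155 for G6pc. The second listed starts of Pkm and Aldoa lie 859 and 1497 bases inside the GENCODE gene, and the matches shown for them also lie inside it. Hk2 held ACGTG matches at 226 and 52 bases before its start, Slc2a1 held 1 at 36 bases, and the Aldoa match lay upstream of 2 of that gene's 3 listed starts. The TTACGT match lay 93 bases before the Pck1 start, and in G6pc matches on both strands overlapped at 162 and 160 bases. Among 32851 RefSeq promoter windows, 16.6% held ACGTG and 2.4% held TTACGT. Counted per gene with a match in any of its windows, as for the 9 genes, the shares were 18.5% and 2.8% of 27025 genes. The motif ACGTG was more frequent in GC-rich windows, at 23% of those with at least 60% GC and 14.1% of the others. The windows with a match in Pkm, Hk2, Aldoa and Slc2a1 had 61.6 to 69.6% GC, against 43.2 to 50.8% in the windows of Slc2a2, Pck1 and G6pc. The remaining shares over all windows were 6.02% for the E-box, 1.55% for the full cAMP element and 3.21% for the TCF/LEF motif. They were 10.2% for the antioxidant core, 0.384% for the HNF4 motif, 32.7% for the GC box and 12.4% for the TATA box. Per gene these shares were 6.86, 1.77, 3.72, 11.5, 0.451, 35.4 and 14.3% in that order. The TCF/LEF motif was found upstream of Pklr and G6pc. The antioxidant core was found upstream of Hk1, Aldoa and G6pc, and the GC box upstream of Pkm, Hk2, Aldoa, Slc2a1 and Pck1. The TATA box was found upstream of Pklr and G6pc, and the E-box, the full cAMP element and the HNF4 motif upstream of none of the 9. These matches describe letters in a window and not sites that a factor occupied.

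Levels below are CPM, the counts of a gene per 1000000 counts of a library's TMM-adjusted total, listed for replicates 1, 2 and 3. Gene counts summed to between 14084343 and 20702618 per library. The share of reads left unmapped was 19.8 to 25.9% in WT, 8.69 to 11.2% in the triple group and 9.71 to 19.1% in the double groups, and its part in the differences below was not tested. A gene passed the test when its Benjamini-Hochberg adjusted p, over all 14098 genes in edgeR's quasi-likelihood test, was below 0.05. Log2 differences are given with their standard errors. Libraries were whole liver, so fewer cells of a type and less RNA per cell cannot be told apart. Hepatocyte genes, measured to check the tissue label, summed to 39358 to 203879 CPM over the 15 libraries. Replicate 3 of WT had the lowest Pkm and Hk2 and the highest Pck1 and G6pc of its group, and stood apart in stellate cell and fibroblast markers, which summed to 843, 829 and 305 CPM in the 3 WT libraries. Replicate 1 of the triple group had the highest Pkm, Hk2, Aldoa and Slc2a1 of all 15 libraries. For the 9 genes, results that rest on either library are given with and without it. Results for other genes and for summed lists are given with all libraries only. Replicate 3 of WT, of the triple group and of CTNNB1+MET was deposited under a name with the word ADDED, whose meaning is not stated. Other cell types are covered by marker sums: endothelial markers at 214 to 302 CPM over all libraries, cholangiocyte markers at 48.8 to 166 CPM outside NFE2L2+MET and 192 to 285 CPM in it, neutrophil markers at 1.65 to 8.60 CPM outside NFE2L2+MET and 8.82 to 27.9 CPM in it. T, NK and B cell markers summed to 5.77 to 6.70 CPM in WT, 13.6 to 16.3 CPM in the triple group, 11.2 to 13.3 CPM in CTNNB1+MET, 7.67 to 10.3 CPM in CTNNB1+NFE2L2 and 6.36 to 8.13 CPM in NFE2L2+MET. Of the 11 tested, 7, 5, 2 and none were higher than WT in the models in that order. Beside them, 26.5, 11, 24.5 and 13.5% of all genes were higher. The part of these markers in the differences below was not tested.

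Of the 9 genes, 5 were higher and 2 lower in the triple group than in WT, where 49.9% of all tested genes differed (26.5% higher and 23.4% lower). In CTNNB1+NFE2L2, 2 were higher and 2 lower than in WT, beside 48.7% of all genes (24.5% higher and 24.2% lower). In NFE2L2+MET, 1 was higher and 2 lower, beside 23.4% of all genes (13.5% higher and 9.89% lower). In CTNNB1+MET, 1 was higher and none lower in edgeR, beside 17.2% of all genes (11% higher and 6.22% lower). There 2 of the 9 had an unadjusted p under 0.05, and DESeq2 and total-count scaling each called 1 higher and 1 lower. The counts of 4 in CTNNB1+NFE2L2, 3 in NFE2L2+MET and 1 in CTNNB1+MET were each near their background. The median log2 difference of the 9 genes was 0.41 in the triple group, -0.28 in CTNNB1+MET, -0.15 in CTNNB1+NFE2L2 and -0.06 in NFE2L2+MET, beside -0.02 to 0 over all genes, with members that moved in opposite directions. Without replicate 1 of the triple group, 3 were higher and 2 lower than in WT, and without replicate 3 of WT, 4 were higher and 2 lower. The 4 comparisons share the WT libraries.

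**Figure D1:**
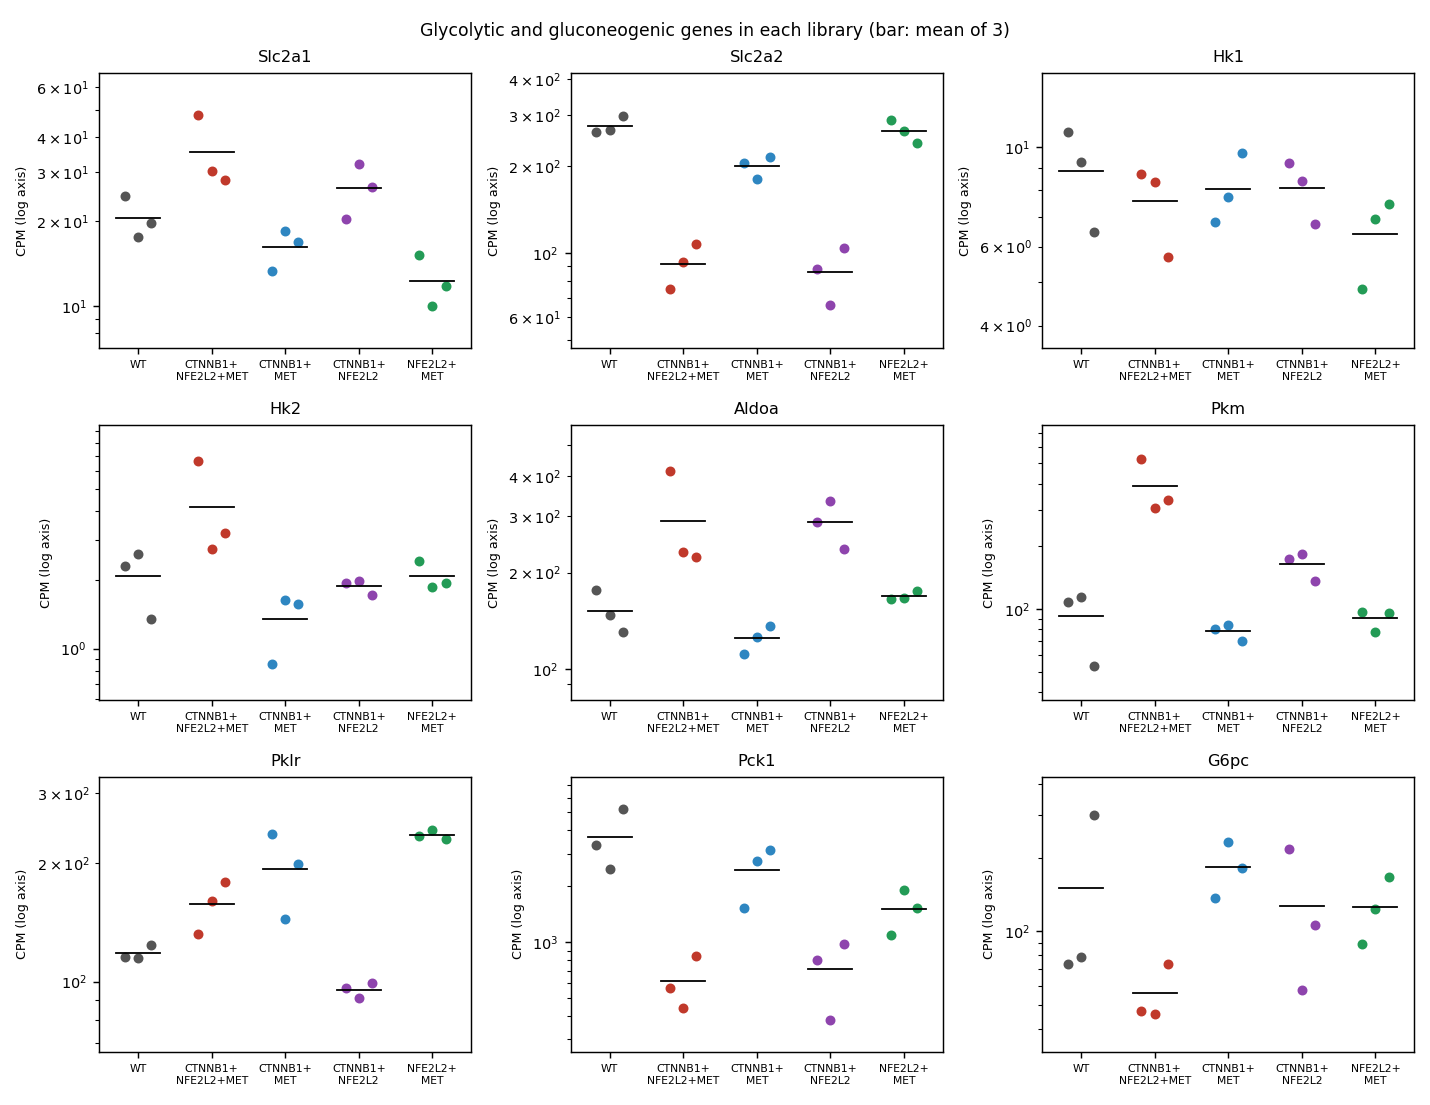
CPM on a log axis of each of the 9 genes in the 15 libraries, with 1 point per library and a bar at the mean of 3. Pkm is highest in the triple group (305 to 525 CPM), Slc2a2 and Pck1 are low in the triple and CTNNB1+NFE2L2 groups, and Pklr is high in NFE2L2+MET (229 to 242 CPM).

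Glucose transporters moved in opposite directions in the triple group. Slc2a2 (chr3:28697903-28731359, plus strand, GRCm38) encodes GLUT2, the high-capacity transporter of the hepatocyte surface. Its level was 262, 266 and 299 CPM in WT, 288, 264 and 239.8 CPM in NFE2L2+MET and 204, 181 and 215 CPM in CTNNB1+MET. It was 74.7, 92.6 and 107 CPM in the triple group and 88.1, 65.7 and 104 CPM in CTNNB1+NFE2L2. The last 2 groups lay below every library of the other 3 groups, and overlapped each other. Slc2a2 was 3.01-fold lower in the triple group than in WT (log2 difference -1.59 ± 0.16, edgeR adjusted p = 1.3e-06) and 3.21-fold lower in CTNNB1+NFE2L2 (-1.68 ± 0.16, adjusted p = 7.7e-07). It was also lower in the triple group than in CTNNB1+MET (-1.13 ± 0.16) and NFE2L2+MET (-1.53 ± 0.16). These calls held in every alternative analysis and without any one library. In CTNNB1+MET the difference from WT was -0.46 ± 0.16 (edgeR adjusted p = 0.055), with no overlap between the groups, and it passed in DESeq2 (adjusted p = 0.031), with total-count scaling (0.042), with a term for the libraries named ADDED (0.041) and in the fit of these 2 groups alone (0.043).

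Slc2a1 (chr4:119108711-119137983, plus strand) encodes GLUT1, the transporter of most proliferating cells. Its level was 24.7, 17.6 and 19.7 CPM in WT and 47.9, 30.2 and 28.1 CPM in the triple group. The double groups had 20.4, 32.1 and 26.5 CPM in CTNNB1+NFE2L2, 13.3, 18.5 and 16.9 CPM in CTNNB1+MET, and 15.2, 9.98 and 11.7 CPM in NFE2L2+MET. Every triple library lay above every WT library, by a small margin for replicates 2 and 3, and every NFE2L2+MET library lay below WT. The triple group was 1.72-fold higher than WT (0.78 ± 0.23, edgeR adjusted p = 0.011). Without its replicate 1 the difference was 0.50 and no longer passed (adjusted p = 0.064). NFE2L2+MET was lower than WT (-0.74 ± 0.24, adjusted p = 0.036), a call that 7 of 14 alternatives lost, including the fits without WT replicate 1 or 3 or NFE2L2+MET replicate 2 or 3. Against NFE2L2+MET, Slc2a1 was 2.87-fold higher in the triple group (1.52 ± 0.23, edgeR adjusted p = 0.00027) and 2.13-fold higher in CTNNB1+NFE2L2 (1.09 ± 0.23, adjusted p = 0.0023). It was also higher in the triple group than in CTNNB1+MET (1.12 ± 0.23). The triple group was 0.43 ± 0.22 above CTNNB1+NFE2L2, which did not pass (edgeR adjusted p = 0.18). Erythroid markers other than globins, which are listed at 0, summed to 18.7 to 27.6 CPM in WT, 14.4 to 15.2 CPM in NFE2L2+MET and 9.95 to 15.4 CPM in the triple group. They summed to 31.2 to 36.99 CPM in CTNNB1+MET and 33.1 to 55.3 CPM in CTNNB1+NFE2L2. The sums were thus below every WT library both in NFE2L2+MET, where Slc2a1 was lower, and in the triple group, where it was higher, and their part in Slc2a1 was not tested.

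Of the hexokinases, only Hk2 passed any comparison in the main edgeR fit, and both genes were low. Hk1 (chr10:62268855-62379908, minus strand) encodes the widely expressed hexokinase 1. Its level ran from 4.83 to 10.8 CPM over the 15 libraries (82 to 191 counts). It passed the test in none of the 10 pairwise comparisons in the main edgeR fit, and its ranges overlapped in all 10. The group means were 8.84 ± 2.18 CPM in WT, 7.59 ± 1.65 in the triple group, 8.08 ± 1.49 in CTNNB1+MET, 8.12 ± 1.28 in CTNNB1+NFE2L2 and 6.40 ± 1.38 in NFE2L2+MET (SD, n = 3). The largest of its 10 differences was -0.46 ± 0.23 in NFE2L2+MET against WT (edgeR adjusted p = 0.16). Without the libraries named ADDED that difference was -0.64 and passed (edgeR adjusted p = 0.039). With total-count scaling, Hk1 was higher in CTNNB1+NFE2L2 than in NFE2L2+MET (0.67, edgeR adjusted p = 0.029). The triple group against NFE2L2+MET passed in 1 alternative.

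Hk2 (chr6:82725025-82774454, minus strand) encodes hexokinase 2, the mitochondria-associated form that many tumours express. Its level was 6.66, 2.74 and 3.21 CPM in the triple group and 2.30, 2.61 and 1.35 CPM in WT. It was 0.858, 1.63 and 1.57 CPM in CTNNB1+MET, 1.93, 1.99 and 1.72 CPM in CTNNB1+NFE2L2 and 2.42, 1.86 and 1.95 CPM in NFE2L2+MET. All 3 triple libraries lay above the other 12, but replicate 2 was barely above the highest WT library, and counts per library were only 14 to 130. The difference from WT was 1.00 ± 0.34 (edgeR adjusted p = 0.023). It fell to 0.51 without triple replicate 1 (adjusted p = 0.20) and to 0.77 without WT replicate 3 (adjusted p = 0.094). Of the 8 alternatives other than omissions of 1 library, 2 also lost this call. Against CTNNB1+MET the triple group was 3.10-fold higher (1.63 ± 0.35, edgeR adjusted p = 0.0024), and that call held in all 14 alternatives. The calls against CTNNB1+NFE2L2 (1.15 ± 0.34) and NFE2L2+MET (1.01 ± 0.34) were lost without triple replicate 1, at 0.66 and 0.52. The first was also lost without CTNNB1+NFE2L2 replicate 2 (1.19) or 3 (1.10), and the second without any of the NFE2L2+MET libraries (0.94 to 1.13). The second was lost in 2 of the 8 other alternatives as well.

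Larger differences were seen for Hkdc1. This hexokinase domain protein, normally scarce in liver, was 0.218 ± 0.101 CPM in WT and 16.6 ± 3.34 CPM in NFE2L2+MET (6.22 ± 0.45, edgeR adjusted p = 1.6e-07). It was also higher in the triple group (4.40 ± 0.48) and CTNNB1+NFE2L2 (3.48 ± 0.50), and was not called in CTNNB1+MET (0.32 ± 0.17 CPM). In NFE2L2+MET, where Hkdc1 was highest, neither Hk1 nor Hk2 passed against WT in the main edgeR fit.

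Aldoa (chr7:126795234-126800751, minus strand), the aldolase of muscle and of most dividing cells, was higher in the 2 groups that carried both CTNNB1 and NFE2L2. Its level was 177, 147 and 131 CPM in WT, 166, 167 and 175 CPM in NFE2L2+MET and 112, 126 and 136 CPM in CTNNB1+MET. It was 415, 232 and 224 CPM in the triple group and 288, 335 and 237 CPM in CTNNB1+NFE2L2. The 2 high groups did not overlap any of the other 3 and overlapped each other. The triple group was 1.92-fold higher than WT (0.94 ± 0.20, edgeR adjusted p = 0.0015), which became 0.59 without its replicate 1 (adjusted p = 0.0047). CTNNB1+NFE2L2 was 1.89-fold higher than WT (0.92 ± 0.20, adjusted p = 0.0019). The difference between CTNNB1+MET and CTNNB1+NFE2L2 was -1.20 ± 0.21, and that between CTNNB1+NFE2L2 and NFE2L2+MET was 0.76 ± 0.20. The triple group was also higher than NFE2L2+MET (0.78 ± 0.20, edgeR adjusted p = 0.0093), with 0.43 and 0.047 without its replicate 1. Markers of skeletal muscle, where this enzyme is abundant, summed to 2.66 to 4.23 CPM over the 15 libraries, with Ckm and Myh2 listed at 0. Eno1 and the globin genes are also listed at 0, so a listed 0 is not taken as absence of expression.

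Pkm (chr9:59656368-59679375, plus strand), which encodes the M-type pyruvate kinases, had the largest rise against WT among the 9 genes. Its level was 525, 305 and 335 CPM in the triple group and 174, 183 and 137 CPM in CTNNB1+NFE2L2. It was 109, 115 and 53.5 CPM in WT, 97.3, 77.8 and 95.9 CPM in NFE2L2+MET and 80.1, 84.0 and 70.3 CPM in CTNNB1+MET. The triple group lay above CTNNB1+NFE2L2, which lay above the other 3 groups, and those 3 overlapped. Pkm was 4.21-fold higher in the triple group than in WT (2.07 ± 0.27, edgeR adjusted p = 2.5e-05) and 2.36-fold higher than in CTNNB1+NFE2L2 (1.24 ± 0.26, adjusted p = 0.0038). The differences from CTNNB1+MET (2.31 ± 0.27) and NFE2L2+MET (2.10 ± 0.27) were of similar size to that from WT. All 4 held in every alternative, and without triple replicate 1 the difference from WT was 1.80. CTNNB1+NFE2L2 was 1.79-fold higher than WT (0.84 ± 0.26, edgeR adjusted p = 0.016), and without its replicate 2 this was 0.75 with an adjusted p of 0.054. Without WT replicate 3 the same difference was 0.56 (edgeR adjusted p = 0.036). Counts per gene do not separate the M1 and M2 splice forms of Pkm.

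Macrophages also express Pkm, and their markers moved with it in some groups. Over all genes, 26.5% were higher than WT in the triple group, 24.5% in CTNNB1+NFE2L2, 13.5% in NFE2L2+MET and 11% in CTNNB1+MET. Of 12 macrophage markers, 11 were higher than WT in the triple group, 11 in CTNNB1+NFE2L2, 11 in NFE2L2+MET and 6 in CTNNB1+MET. Their summed level was 304 to 366 CPM in WT, 744 to 1072 CPM in the triple group, 684 to 945 CPM in CTNNB1+NFE2L2, 684 to 757 CPM in NFE2L2+MET and 450 to 558 CPM in CTNNB1+MET. In NFE2L2+MET, Pkm at 77.8 to 97.3 CPM stayed within the WT range while the macrophage sum lay above all of WT. Cell cycle genes summed to 49.5 to 54.2 CPM in WT, 311 to 418 CPM in the triple group, 251 to 298 CPM in CTNNB1+NFE2L2, 119 to 144 CPM in CTNNB1+MET and 59.2 to 93.7 CPM in NFE2L2+MET. In CTNNB1+MET, 11 of 12 cell cycle genes were higher than WT and Pkm was not called. The part of either list in the Pkm, Hk2, Aldoa and Slc2a1 results was not tested.

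**Figure D2:**
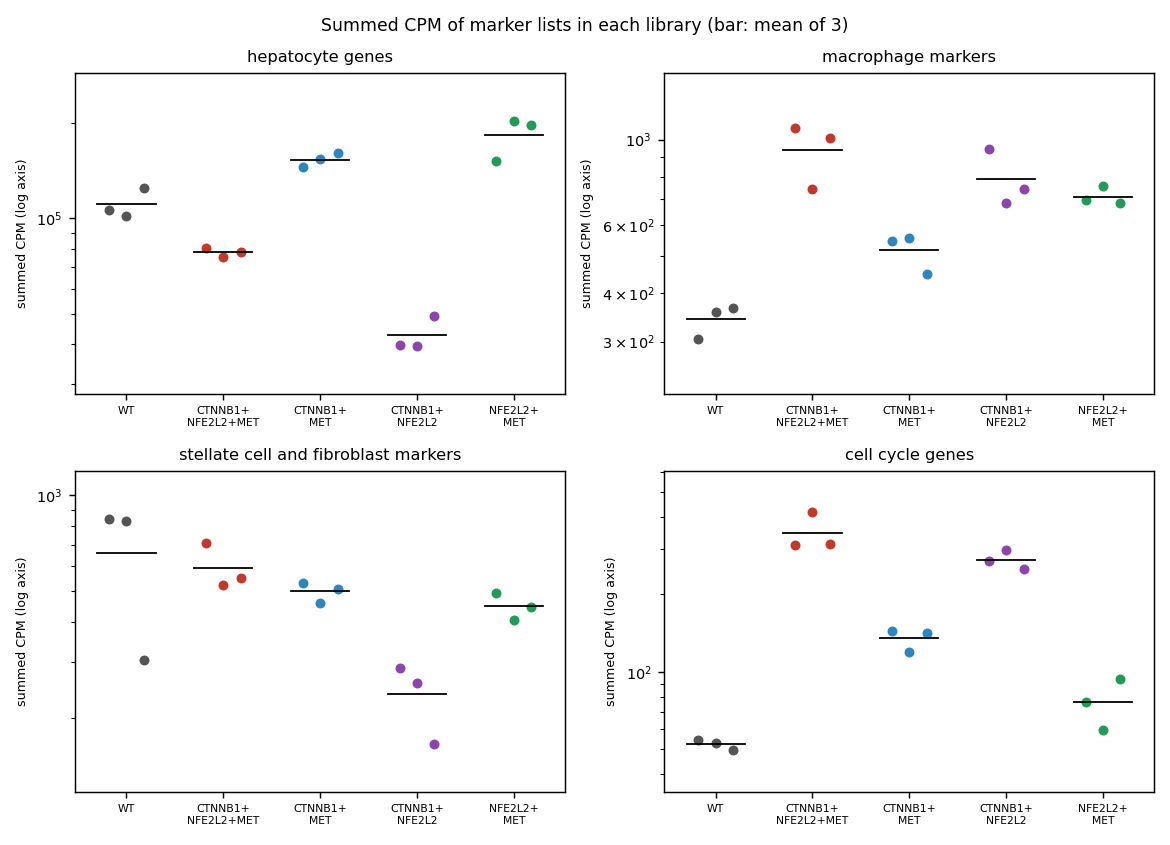
Summed CPM on a log axis of hepatocyte genes, macrophage markers, stellate cell and fibroblast markers and cell cycle genes, with 1 point per library and a bar at the mean of 3. Hepatocyte genes are lowest in CTNNB1+NFE2L2, macrophage sums are above WT in all 4 models, and WT replicate 3 has a low stellate sum (305 CPM).

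Pklr (chr3:89136142-89146784, plus strand) encodes the liver pyruvate kinase, and its groups stood in another order than those of Pkm. Its level was 233, 242 and 229 CPM in NFE2L2+MET, 237, 144 and 198 CPM in CTNNB1+MET and 132, 160.4 and 179 CPM in the triple group. It was 115, 115 and 124 CPM in WT and 96.2, 90.8 and 99.0 CPM in CTNNB1+NFE2L2. The 3 groups that carried MET all lay above every WT library, and CTNNB1+NFE2L2 lay below every library of the other 4 groups. Pklr was 1.99-fold higher than WT in NFE2L2+MET (0.99 ± 0.15, edgeR adjusted p = 0.00022) and 1.64-fold higher in CTNNB1+MET (0.71 ± 0.15, adjusted p = 0.0039), and both calls held in every alternative. The rise in the triple group was 1.33-fold (0.41 ± 0.15, edgeR adjusted p = 0.028). It did not pass without WT replicate 1 or 2, without triple replicate 2 or 3, or without the libraries named ADDED, where adjusted p was 0.067 to 0.14. Against CTNNB1+NFE2L2, Pklr was higher in the triple group (0.72 ± 0.15) and in CTNNB1+MET (1.02 ± 0.15), and CTNNB1+NFE2L2 was lower than NFE2L2+MET (-1.30 ± 0.15). CTNNB1+NFE2L2 against WT was -0.31 ± 0.15, which did not pass (adjusted p = 0.098). Hepatocyte genes summed to 101588 to 124366 CPM in WT, and to 151896 to 203879 CPM in NFE2L2+MET and 145444 to 161358 CPM in CTNNB1+MET, both above every WT library. They summed to 75609 to 80617 CPM in the triple group and 39358 to 49034 CPM in CTNNB1+NFE2L2, both below every WT library. Of the 12 hepatocyte genes, 2 were higher and 2 lower than WT in NFE2L2+MET and 2 higher in CTNNB1+MET. Beside them, 13.5% of all genes were higher and 9.89% lower in NFE2L2+MET, and 11% were higher in CTNNB1+MET. These counts were near the background, and the part of hepatocyte genes in Pklr was not tested.

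Against NFE2L2+MET, 4 of the 9 genes were higher and 3 lower in the triple group, beside 30.7% of all genes (16.4% higher and 14.3% lower). Against CTNNB1+MET, 4 were higher and 3 lower, beside 33.8% of all genes (18.4% higher and 15.4% lower). Against CTNNB1+NFE2L2, 3 were higher and none lower, beside 25% of all genes (13.1% higher and 11.8% lower). The 3 genes were Pkm, Pklr and Hk2, and that count was near the background in either direction. These comparisons share the triple libraries. Scaling to total counts in place of TMM moved the median of all genes by 0.38 in the triple group against NFE2L2+MET, where 5 of the 9 were then higher and 1 lower. The Pklr difference of -0.58 ± 0.15 in that comparison became -0.21, with an adjusted p of 0.26. The same scaling moved that median by 0.26 against CTNNB1+MET, where 4 were then higher and 2 lower.

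Among the double groups, 3 genes were higher and 3 lower in CTNNB1+NFE2L2 than in NFE2L2+MET, beside 37.2% of all genes (18.3% higher and 18.9% lower), and 4 higher and 2 lower with total-count scaling. In this comparison Pkm was 0.87 ± 0.26 higher, and without CTNNB1+NFE2L2 replicate 2 or NFE2L2+MET replicate 2 the adjusted p was 0.060 or 0.068. In CTNNB1+MET against CTNNB1+NFE2L2, 3 were higher and 3 lower, beside 35.1% of all genes (17.2% higher and 17.9% lower). Of these, Slc2a1 (-0.70 ± 0.23) was lost in 6 of 14 alternatives, among them those without CTNNB1+MET replicate 1 or 3 or CTNNB1+NFE2L2 replicate 2 or 3. In CTNNB1+MET against NFE2L2+MET, none of the 9 passed in edgeR or in DESeq2, beside 14.3% of all genes (6.96% higher and 7.36% lower). There 2 of the 9 had an unadjusted p under 0.05, and Slc2a2 and Aldoa passed when these 2 groups were fitted alone.

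**Figure D3:**
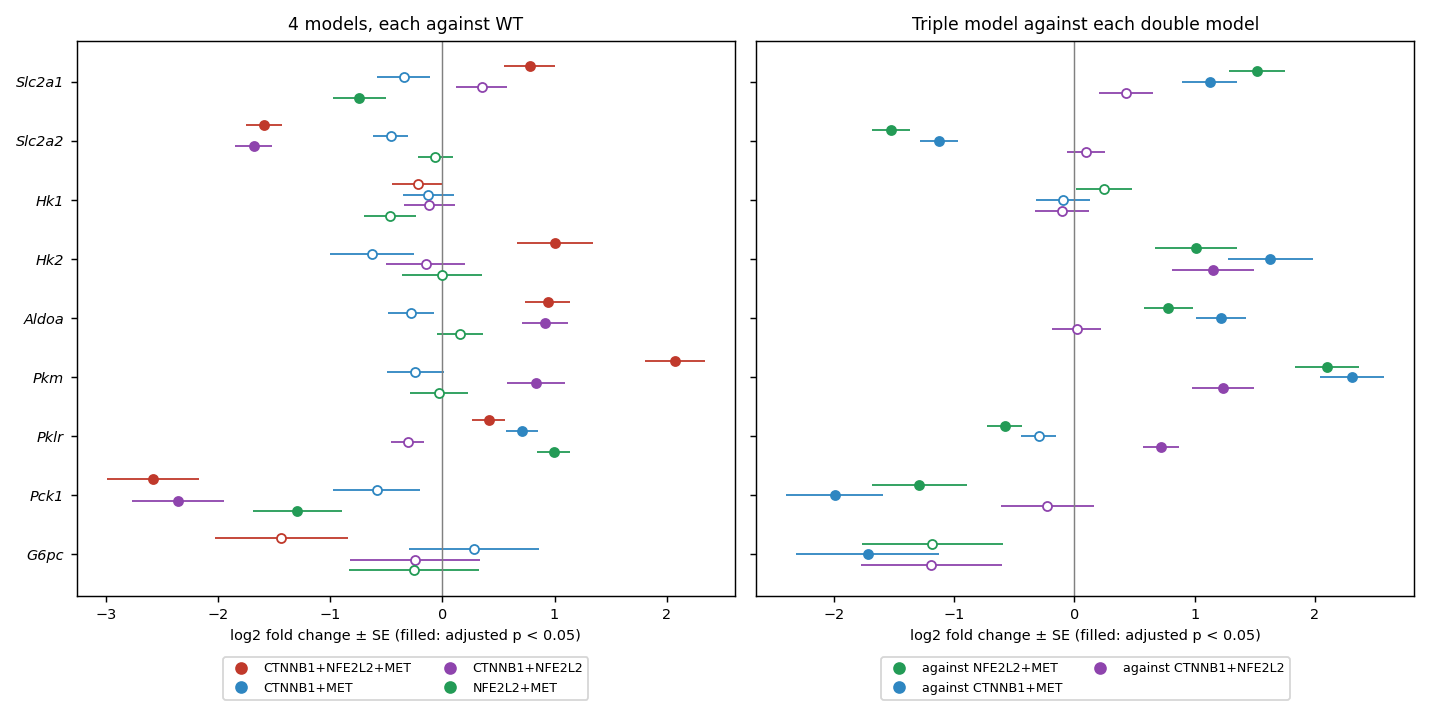
Log2 fold change with its standard error for the 9 genes, in the 4 models against WT (left) and in the triple group against each double group (right), with filled points where the adjusted p was below 0.05. Pkm is to the right of 0 in all 3 comparisons on the right, and Slc2a2 and Pck1 are far to the left against CTNNB1+MET and NFE2L2+MET but near 0 against CTNNB1+NFE2L2.

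Per kb of exon sequence, the mean WT level was 1076 CPM for Pck1, 52.1 for Aldoa, 47.9 for Slc2a2, 36.4 for Pklr, 18.5 for Pkm, 5.89 for Slc2a1, 1.04 for Hk1 and 0.35 for Hk2. G6pc had 30.5, 32.6 and 124 CPM per kb in the 3 WT libraries, so it lay below Pklr, Slc2a2 and Aldoa in replicates 1 and 2 and above them in replicate 3. On this scale Pkm lay below Pklr in WT and above it in the triple group, at 77.7 against 48.6 CPM per kb.

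The share of the non-liver isoform at the transport and pyruvate kinase steps, computed from CPM per kb of exon sequence, is a description and was not tested. Pkm made up 37.9, 39.3 and 21.8% of Pkm plus Pklr in WT and 72.0, 55.2 and 54.8% in the triple group. The share was 54.0, 56.7 and 47.2% in CTNNB1+NFE2L2, 18, 27.4 and 18.7% in CTNNB1+MET and 21.2, 17.2 and 21.3% in NFE2L2+MET. The triple and CTNNB1+NFE2L2 groups therefore overlapped in this share at different levels of the 2 genes: Pklr lay above every WT library in the first and below every WT library in the second, and Pkm was lower in the second.

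The transporter share shows the same 2 groups apart from the other 3. Slc2a1 was 13.4, 9.76 and 9.75% of Slc2a1 plus Slc2a2 in WT, 51.3, 34.9 and 30.02% in the triple group and 27.5, 44.5 and 29.5% in CTNNB1+NFE2L2. It was 9.65, 14.4 and 11.4% in CTNNB1+MET and 7.98, 5.84 and 7.44% in NFE2L2+MET. In CTNNB1+NFE2L2 the log2 level of Slc2a2 fell by 1.68 against WT, and Slc2a1 was not called (0.35 ± 0.23).

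**Figure D4:**
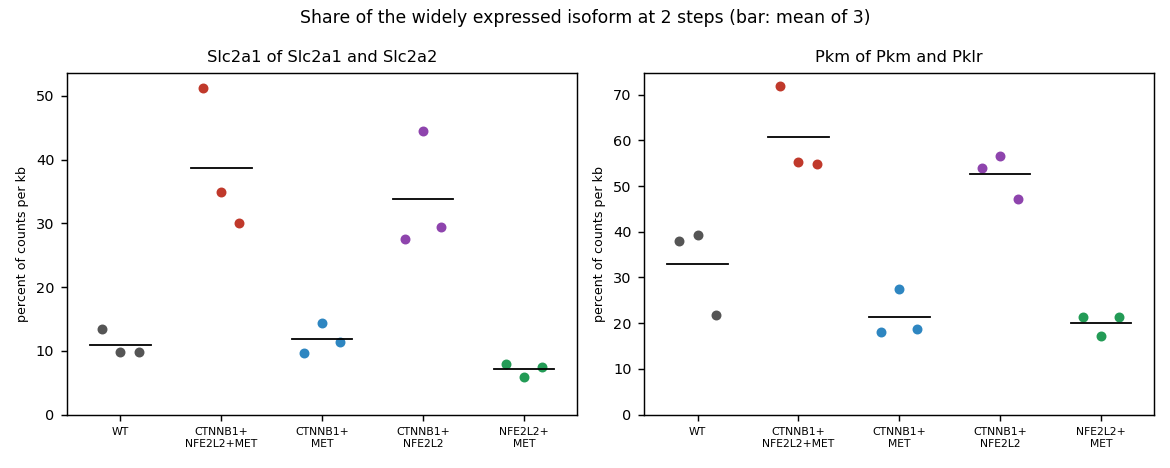
Share of the widely expressed isoform at 2 steps, as percent of counts per kb, with 1 point per library and a bar at the mean of 3; each panel has its own axis, starting at 0. In both panels every library of the triple and CTNNB1+NFE2L2 groups lies above every library of the other 3 groups.

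Pck1 (chr2:173153048-173159273, plus strand), the cytosolic carboxykinase that commits carbon to glucose, was lower in the same 2 groups. Its level was 3343, 2488 and 5238 CPM in WT and 1529, 2722 and 3119 CPM in CTNNB1+MET. It was 1087, 1906 and 1526 CPM in NFE2L2+MET, 568, 441 and 839.7 CPM in the triple group and 799, 382 and 980.3 CPM in CTNNB1+NFE2L2. The triple and CTNNB1+NFE2L2 groups lay below all other libraries and overlapped each other, NFE2L2+MET lay below WT, and CTNNB1+MET overlapped WT. Pck1 was 5.99-fold lower in the triple group than in WT (-2.58 ± 0.41, edgeR adjusted p = 0.00017) and 5.12-fold lower in CTNNB1+NFE2L2 (-2.36 ± 0.41, adjusted p = 0.00036), and both calls held in every alternative. It was also 3.99-fold lower in the triple group than in CTNNB1+MET (edgeR adjusted p = 0.0020). Without WT replicate 3, which had the highest Pck1 of all libraries, these differences were -2.24 and -2.02. NFE2L2+MET was 2.45-fold lower than WT (-1.29 ± 0.39, adjusted p = 0.031), and 7 of 14 alternatives lost this call. Among them were the fits without WT replicate 1 (-1.36) or 3 (-0.95, adjusted p = 0.12) and without NFE2L2+MET replicate 1 (-1.10) or 3 (-1.30). The calls between NFE2L2+MET and the triple group (-1.29 ± 0.39, adjusted p = 0.024) and between NFE2L2+MET and CTNNB1+NFE2L2 (-1.06 ± 0.39, adjusted p = 0.047) were lost in 5 and 9 of 14 alternatives. Both were lost without NFE2L2+MET replicate 2 or 3, the first also without triple replicate 1 or 2, and the second without CTNNB1+NFE2L2 replicate 1 or 2.

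G6pc (chr11:101367561-101377903, plus strand), which encodes the catalytic subunit of glucose-6-phosphatase, varied widely within groups. Its level was 73.7, 78.6 and 300.4 CPM in WT, 217, 57.5 and 107 CPM in CTNNB1+NFE2L2 and 88.5, 123 and 167 CPM in NFE2L2+MET. It was 137, 232 and 182 CPM in CTNNB1+MET and 47.4, 46.0 and 73.8 CPM in the triple group. The triple group lay below CTNNB1+MET and NFE2L2+MET but overlapped the WT range at its replicate 3. The difference of the triple group from WT was -1.44 ± 0.59 (edgeR adjusted p = 0.063). Without WT replicate 3 it was -0.45 (adjusted p = 0.47), without WT replicate 1 or 2 it was -1.77 or -1.74 and passed, and DESeq2 also called it (-1.45, adjusted p = 0.041). Against CTNNB1+MET the triple group was lower (-1.72 ± 0.60, edgeR adjusted p = 0.044), and each of the 6 omissions of 1 library took this above the threshold. The call was also lost in 3 of the 8 other alternatives. The other 8 comparisons did not pass in edgeR.

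Enzymes next to Pck1 and G6pc divided in the same groups. Of 9 other gluconeogenic genes, 2 were higher and 5 lower than WT in the triple group, with a median of -0.72 beside -0.02 over all genes. In CTNNB1+NFE2L2, 2 were higher and 3 lower (median -0.21), in CTNNB1+MET 1 was higher, and in NFE2L2+MET 1 was lower. Over all genes, 49.9% differed from WT in the triple group, 48.7% in CTNNB1+NFE2L2, 17.2% in CTNNB1+MET and 23.4% in NFE2L2+MET. The counts in the double groups were near these shares. Fbp1, the fructose bisphosphatase of liver, was 735 ± 75.0 CPM in WT, 161 ± 45.6 in the triple group and 134 ± 22.1 in CTNNB1+NFE2L2 (SD, n = 3), with differences of -2.19 ± 0.20 and -2.45 ± 0.21. Slc37a4, the glucose 6-phosphate carrier that works with G6pc, was lower in both (-0.73 ± 0.18 and -0.69 ± 0.18). Gpt, an alanine aminotransferase, was also lower (-0.92 ± 0.15 and -0.70 ± 0.15). Pck2, the mitochondrial carboxykinase, went the other way from Pck1: 5.68 ± 1.34 CPM in WT, 26.0 ± 5.16 in the triple group, 15.01 ± 3.12 in CTNNB1+MET and 13.1 ± 1.74 in CTNNB1+NFE2L2, and all 3 differences passed (2.20 ± 0.21, 1.41 ± 0.21 and 1.20 ± 0.21). Pcx, which makes oxaloacetate from pyruvate, passed in none of the 4 models in edgeR.

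The other glycolytic enzymes did not move as a block. Of 14 listed, 13 were tested, and Eno1 is listed at 0 in all libraries, as are the globin genes. In the triple group 6 were higher and 2 lower than WT, in CTNNB1+NFE2L2 5 and 1 (6 and none with total-count scaling), and in NFE2L2+MET 3 and none, with medians of 0.03, 0.31 and -0.02. In CTNNB1+MET none of 13 passed in edgeR, 2 had an unadjusted p under 0.05, and DESeq2 called 1. Over all genes, 26.5% were higher and 23.4% lower in the triple group, and 24.5 and 24.2% in CTNNB1+NFE2L2. The shares were 13.5 and 9.89% in NFE2L2+MET, and 11 and 6.22% in CTNNB1+MET. Gapdh and Pgk1, 2 of the enzymes that act after the aldolase split, passed in none of the 4 models. Gapdh was 807 to 898 CPM in WT and 758 to 989 CPM in the triple group. Gpi1, the glucose phosphate isomerase, was higher in the triple group (0.97 ± 0.15), CTNNB1+NFE2L2 (0.96 ± 0.15) and NFE2L2+MET (0.82 ± 0.15). Pgam1, the phosphoglycerate mutase, was higher in the triple group (0.36 ± 0.12) and CTNNB1+NFE2L2 (0.84 ± 0.12). Of the phosphofructokinases, Pfkp was higher (1.01 ± 0.39, edgeR adjusted p = 0.041) and Pfkm lower (-0.53 ± 0.12) in the triple group, and Pfkl passed in no model.

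**Figure D5:**
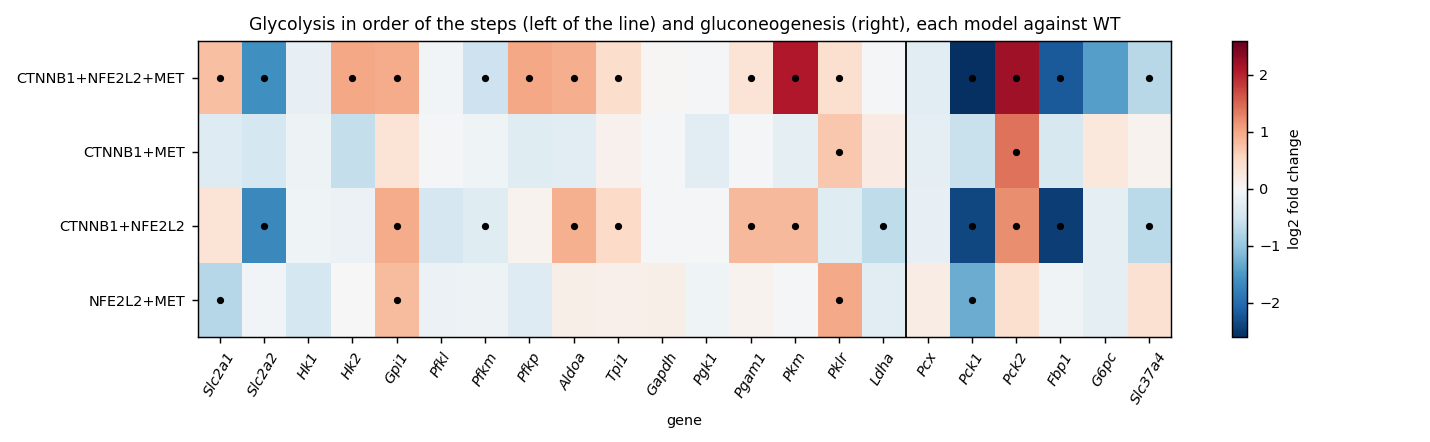
Log2 fold change against WT (colour) of 22 genes in the order of the pathway, for the 4 models, with a dot where the adjusted p was below 0.05. Pkm and Pck2 are the deepest red in the triple group, Pck1 and Fbp1 the deepest blue in the triple and CTNNB1+NFE2L2 groups, and Gapdh and Pgk1 carry no dot in any model.

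Fates of pyruvate and lactate split within the list. Of 15 genes, 6 were higher and 3 lower than WT in the triple group and 6 and 4 in CTNNB1+NFE2L2. The counts were 1 and 3 in CTNNB1+MET and 3 and 3 in NFE2L2+MET (1 and 4 there with total-count scaling). Beside these counts, 49.9, 48.7, 17.2 and 23.4% of all genes differed from WT in the models in that order. Slc16a7, a monocarboxylate transporter, was higher in all 4 models (1.80 ± 0.13 in the triple group, 1.27 ± 0.13 in CTNNB1+MET, 1.51 ± 0.13 in CTNNB1+NFE2L2 and 0.91 ± 0.13 in NFE2L2+MET). Pdk4, a kinase that shuts off pyruvate dehydrogenase, was higher in the triple group (2.23 ± 0.45) and CTNNB1+NFE2L2 (3.50 ± 0.46), while Pdk1, another of these kinases, was lower (-1.05 ± 0.14 and -1.18 ± 0.14). Ldha, the main lactate dehydrogenase of tumours, did not pass in the triple group (-0.06 ± 0.19) and was lower in CTNNB1+NFE2L2 (-0.66 ± 0.19).

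Among the other hexose transporters, 7 of 9 were tested. None were higher and 3 were lower than WT in the triple group in edgeR, and the same counts came from DESeq2. Slc2a5, a fructose carrier (-2.05 ± 0.37), Slc2a9, a urate carrier (-0.90 ± 0.16), and Slc2a8 (-0.67 ± 0.12) were the 3. In CTNNB1+NFE2L2 none were higher and 2 lower (1 and 2 with total-count scaling), in NFE2L2+MET 2 and 1, and in CTNNB1+MET 1 and none. Background shares of all genes that differed were 49.9% in the triple group, 48.7% in CTNNB1+NFE2L2, 23.4% in NFE2L2+MET and 17.2% in CTNNB1+MET. Slc2a4, the insulin-responsive GLUT4, was higher in CTNNB1+MET (1.97 ± 0.22) and NFE2L2+MET (1.82 ± 0.22), from 1.42 ± 0.108 CPM in WT to 5.60 ± 0.928 and 5.02 ± 0.706 CPM (SD, n = 3). Slc2a3, the high-affinity GLUT3, passed in no model.

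Of 13 fructose and glycogen enzymes, 6 were higher and 3 lower in the triple group (6 and 1 with total-count scaling). The counts were 4 and 3 in CTNNB1+NFE2L2 (6 and 2), 6 and none in NFE2L2+MET, and 1 and none in CTNNB1+MET. Among all genes, 49.9, 48.7, 23.4 and 17.2% differed from WT in the models in that order. Gbe1, the glycogen branching enzyme, was 86.9 ± 6.67 CPM in WT, 97.0 ± 6.20 in CTNNB1+MET, 327 ± 20.4 in the triple group, 364 ± 25.8 in CTNNB1+NFE2L2 and 253 ± 49.1 in NFE2L2+MET (SD, n = 3). It rose in the 3 groups that carried NFE2L2 (1.91 ± 0.13, 2.07 ± 0.13 and 1.54 ± 0.13). Ugp2, which makes UDP-glucose, rose in the same 3 groups (2.04 ± 0.23, 1.10 ± 0.22 and 2.20 ± 0.23). Pygb, the brain-type glycogen phosphorylase, rose in all 4 models, by 2.90 ± 0.16 in the triple group and by 1.03 ± 0.16 in CTNNB1+MET, while the liver form Pygl passed in none.

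Regulators of glycolysis, 12 in all, were 3 higher and 3 lower in the triple group and 2 and 6 in CTNNB1+NFE2L2. They were 3 and none in NFE2L2+MET (2 and 1 with total-count scaling) and 1 and none in CTNNB1+MET. The shares of all genes that differed from WT were 49.9, 48.7, 23.4 and 17.2% in that order. Mlxipl, which encodes the glucose-sensing factor ChREBP that activates Pklr, was lower in the triple group (-1.25 ± 0.17) and CTNNB1+NFE2L2 (-1.33 ± 0.17). Pklr was called higher than WT in the first, in the main edgeR fit but not in every alternative, and was not called in the second. The part of Mlxipl in Pklr was not tested. Pfkfb4, which sets fructose 2,6-bisphosphate, rose in the triple group (2.64 ± 0.26), CTNNB1+NFE2L2 (3.93 ± 0.26) and NFE2L2+MET (2.72 ± 0.27).

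Of 15 regulators of gluconeogenesis, 1 was higher and 11 lower than WT in the triple group, 9 were lower in CTNNB1+NFE2L2, 5 in NFE2L2+MET and 2 in CTNNB1+MET, beside 23.4, 24.2, 9.89 and 6.22% of all genes lower, with medians of -0.57, -0.40, -0.32 and -0.05. With total-count scaling 7, 6, 7 and 3 were lower. Ppargc1b, a coactivator, was lower in all 4 (-2.51 ± 0.33, -2.09 ± 0.32, -1.71 ± 0.31 and -1.17 ± 0.30 in that order). Crtc2, the coactivator of cAMP-driven transcription, was also lower in all 4 (-1.09 ± 0.15, -0.87 ± 0.15, -0.91 ± 0.15 and -0.49 ± 0.14), while Pck1 was not called in CTNNB1+MET. Ppargc1a, a coactivator that fasting induces, was lower in the triple group (-0.85 ± 0.27) and CTNNB1+NFE2L2 (-0.76 ± 0.27). Hepatocyte genes fell alongside, with 10 of 12 lower than WT in the triple group and 11 of 12 in CTNNB1+NFE2L2. Their part in the lower Pck1, Slc2a2 and Fbp1 was not tested.

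Of 12 genes that respond to fasting and glucocorticoids, 2 were higher and 7 lower in the triple group, 2 and 5 in CTNNB1+NFE2L2, 2 and none in CTNNB1+MET and 1 and none in NFE2L2+MET (1 and 3 with total-count scaling). Beside these counts, 49.9, 48.7, 17.2 and 23.4% of all genes differed from WT in the models in that order. The summed level of the 12 genes was 4175 to 8817 CPM in WT, 5354 to 6818 CPM in CTNNB1+MET and 3613 to 4807 CPM in NFE2L2+MET. It was 2651 to 3715 CPM in the triple group and 2440 to 3063 CPM in CTNNB1+NFE2L2, both below every WT library. Sds, the serine dehydratase, was lower in the triple group (-2.26 ± 0.46) and CTNNB1+NFE2L2 (-2.11 ± 0.46), and Tat, the tyrosine aminotransferase, was lower in the triple group (-2.25 ± 0.47). Igfbp1, a secreted protein that rises in fasting, went the other way in the triple group (4.29 ± 0.92), CTNNB1+MET (4.05 ± 0.91) and CTNNB1+NFE2L2 (2.79 ± 0.87). The feeding state of the mice is not among the labels used here, and its part in Pck1 and G6pc was not tested.

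Hypoxia response genes went in both directions, as all genes did. Of 12, 4 were higher and 5 lower than WT in the triple group (4 and 2 with total-count scaling). The counts were 3 and 5 in CTNNB1+NFE2L2, 1 and 2 in NFE2L2+MET, and none and 2 in CTNNB1+MET. Over all genes, 26.5% were higher and 23.4% lower in the triple group, and 24.5 and 24.2% in CTNNB1+NFE2L2. The shares were 13.5 and 9.89% in NFE2L2+MET, and 11 and 6.22% in CTNNB1+MET. Egln3, a prolyl hydroxylase that the hypoxia factor induces, was higher in the triple group (1.96 ± 0.20) and CTNNB1+NFE2L2 (0.88 ± 0.20). Ndrg1 was also higher in these groups (1.69 ± 0.38 and 2.08 ± 0.39). Vegfa, the vascular growth factor, was lower in the triple group (-1.02 ± 0.15) and CTNNB1+NFE2L2 (-1.09 ± 0.15).

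For each of the 9 genes, the 3 genes with the most similar profile over the 15 libraries were found by the mean absolute difference of centred log2 CPM, as a description. Pkm was nearest to Egln3 (0.17 log2 units on average, over a Pkm range of 3.29), then Cx3cr1 and Cd44. Hk2 was nearest to Pla2g4a (0.23), Alox5ap and Cd200r1, and Aldoa to Fnbp1 (0.14), Ube2o and Dnase1l1. Slc2a1 was nearest to Mad2l2 (0.21), Pold2 and Lrrc49. Pklr was nearest to Bche (0.16), Ikbke and the fatty acid synthesis gene Acaca. Slc2a2 was nearest to the hepatocyte gene Itih1 (0.12), Gm4788 and AI182371, and Hk1 to Samd4b (0.10), Rbm42 and Tmem104. Pck1 was nearest to Sds (0.24, over a range of 3.78), then Ctcfl and Igf1. G6pc had the loosest matches, with Angptl4 (0.36), Klf15 and Ccrn4l.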

How the data were processed

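The deposited files hold counts of reads per gene for each library, which the authors made, and no other unit was used. Per the submitters' processing notes, Trimmomatic and STAR were used with mm10, with versions and annotation not given in the sources used here. The unstranded column was used, because the 2 stranded columns were nearly equal (49.7 to 49.9% in the first). Counts of the overlapping pairs Pklr and Hcn3, Aldoa and Fam57b, and of Hk1, Hk2, Slc2a1 and Slc2a2 with antisense genes, are therefore uncertain. Pkm overlaps Gm49759 and Slc2a1 overlaps Mir1957a on the same strand, which adds uncertainty to their counts. Reads without a gene were 6.85 to 9.74%, multimapping 4.81 to 6.45% and ambiguous 1.48 to 1.96%, and were left out of totals.

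Testing used edgeR 4.0.16 in R 4.3.3: TMM, filterByExpr by group (14098 genes), 1 coefficient per group over all 15 libraries, the robust quasi-likelihood F test, and Benjamini-Hochberg adjustment with a threshold of 0.05. The step was tested on simulated data. DESeq2 1.42.0 and other settings are alternatives. The length behind CPM per kb is the union of GENCODE exons on GRCm38, and upstream sequences come from RefSeq (GRCm38.p6). The 9 genes, the 9 pathway lists, the 10 marker lists and the comparisons were chosen with earlier results of these data known. Named beside the 9 genes are genes with the 4 smallest p of a pathway list in a comparison and a set of well-known members, and some results are not reported here. Replicates were numbered in accession order. No 2 libraries of a group agreed within sampling noise (chi-square per gene at least 14.1).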

Additional observations from a re-analysis of the deposited data

How the results depend on the processing

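No paired analysis was possible because no label links a library of a group to one of another. Of 90 comparisons of a single gene among the 9, 44 passed, 30 of them in each of the 14 alternatives run and 14 lost in at least 1. Another 10 passed only in an alternative. A further 23 were smaller than their own standard error, and no direction is given for them. No comparison above its standard error reversed. In CTNNB1+MET against WT, 1505 genes were called when these 2 groups were fitted alone, against 2429, and 1294 to 2249 without 1 library. There, 2 of the 9 genes passed with total counts, with a term for the libraries named ADDED, in the 2 groups alone and in DESeq2. In NFE2L2+MET against WT, 2115 genes were called in the 2 groups alone, against 3303, and 2137 to 3008 without 1 library. There, 1 of the 9 passed without the low-count filter, and 1 to 3 without 1 library. Total counts called 6928 genes between the triple group and NFE2L2+MET, 6133 higher and 795 lower, against 2314 and 2011. Scaling to total counts moved the median of all genes by -0.18 to 0.38 over the 10 comparisons. Without 1 library, 2259 to 3240 genes were called between the triple group and CTNNB1+NFE2L2, against 3520, and 1343 to 1654 between CTNNB1+MET and NFE2L2+MET, against 2018. In that last comparison 2 of the 9 passed in the 2 groups alone. The causes were not tested. Depth limits the precision for Hk2, which had 14 to 130 counts per library.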
